A study of Mus musculus with 2 samples.

Results

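The 10 genes described here encode the cyclins, kinases and inhibitors that control entry into the cell cycle: the D cyclins Ccnd1, Ccnd2 and Ccnd3, the E cyclins Ccne1 and Ccne2, the kinases Cdk2, Cdk4 and Cdk6, and the inhibitors Cdkn1a and Cdkn1b. They are a list of named genes, matched by gene ID, and no measured value enters the rule. All 10 were among the 21461 nuclear protein-coding genes of the tables. The study sequenced total RNA from mouse cells labelled megakaryocyte, the large platelet-forming cell of the marrow, in 2 libraries. They were primary cells from C57BL/6J males, adult and 5 to 6 weeks old, with no treatment stated. No transgene, allele or agent is named for either library. The isolation protocol is titled for both erythroid cells and megakaryocytes, from marrow. Ribosomal RNA was removed, and the ScriptSeq kit was used on 100 ng of RNA. Fragments of 221 to 1000 nucleotides were stated for library 1, and of 200 to 1000 for library 2. The labels number the libraries as biological replicates 1 and 2 and give the same donor for both. Nothing in them says that the RNA came from separate animals, so the spread between the libraries may be technical. The libraries form 1 group, and no contrast between conditions could be made.

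The expression of lineage markers went against the label. Of 12 megakaryocyte markers, 10 were under 1 TPM in both libraries, and the 12 summed to 9.44 and 11.1 TPM. TPM, the deposited unit of level, divides counts by transcript length and scales each table to the same total. Most of these sums lay in the 2 that reached 1 TPM in both libraries, Itgb3 at 5.92 and 5.66 TPM and Itga2b at 3.26 and 4.89 TPM. Pf4, Ppbp and Gp9, which encode platelet granule and surface proteins, had 0 counts in library 1 and 3, 7 and 5 counts in library 2. The 8 neutrophil markers summed to 14343 and 13614 TPM and the 7 monocyte markers to 7729 and 10122 TPM. The samples are therefore called the libraries labelled megakaryocyte. In such bulk RNA, fewer cells of a type and less RNA per cell cannot be told apart. Summed expected counts, the estimated reads per gene, were 42703213 in library 1 and 50532821 in library 2.

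A cell in G1 makes D cyclins in response to growth signals, and these bind Cdk4 and Cdk6. The active kinases phosphorylate the retinoblastoma proteins, which frees E2F factors to switch on genes for DNA replication, Ccne1 and Ccne2 among them. E cyclins with Cdk2 then complete the step into S phase. The CIP/KIP proteins p21 (Cdkn1a) and p27 (Cdkn1b) bind cyclin-kinase complexes and inhibit Cdk2, while the INK4 proteins act on Cdk4 and Cdk6 alone. In megakaryocytes the same proteins are known for their part in endomitosis, the repeated DNA synthesis without division that makes these cells polyploid.

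Over all transcripts, Cdk4, Ccnd3 and Cdkn1b gave the highest levels of the 10 genes, and Ccnd1, Ccnd2 and Cdkn1a the lowest. On coding transcripts alone Cdk4 stood at 11.7 ± 1.44 TPM (SD, n = 2), below Cdk2 and Ccne2, while the lowest genes were the same. TPM here is scaled over every row of a table, and nuclear protein-coding genes held 24.0% of it in library 1 and 26.8% in library 2. Ordered by mean TPM over the 2 libraries, Cdk4 stood at 57.0 ± 19.9 (SD, n = 2), Ccnd3 at 44.2 ± 2.22 and Cdkn1b at 25.5 ± 0.255. Then came Ccne2 at 16.9 ± 5.04, Cdk2 at 14.5 ± 0.601 and Ccne1 at 9.0 ± 0.240 TPM. Cdk6 followed at 4.34 ± 1.56 TPM, ahead of Ccnd1 at 1.31 ± 0.0849, Cdkn1a at 1.25 ± 0.481 and Ccnd2 at 1.2 ± 0.325. The values of neighbours in this order overlapped for Cdk4 and Ccnd3, for Ccne2 and Cdk2, for Ccnd1 and Cdkn1a, and for Cdkn1a and Ccnd2. The other neighbours did not overlap. Of the 10 genes, 8 reached 1 TPM in both libraries and 5 reached 10 TPM in both, against 42.4% and 16.9% of all nuclear protein-coding genes. The median of their mean levels was 11.8 TPM, and that of all 21461 genes was 0.28 TPM. The deposited counts of all 10 genes were whole numbers in both libraries to within 0.005, so the values show no reads divided between these genes and others.

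**Figure D1:**
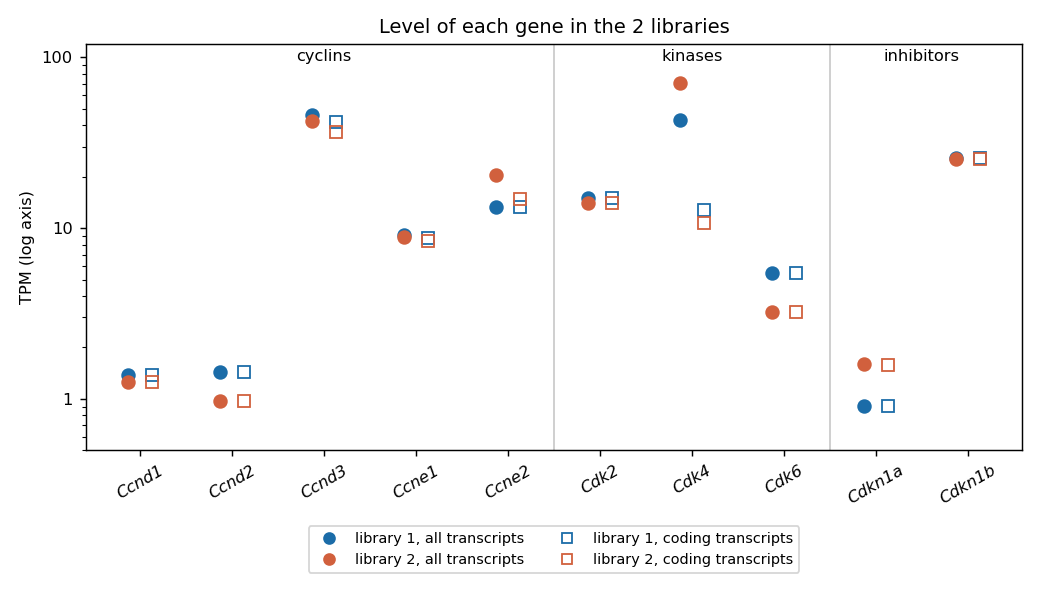
TPM of each gene on a log axis, with library 1 in blue and library 2 in orange; filled circles sum all transcripts of a gene and open squares its protein-coding transcripts. Cdk4 falls from 42.9 and 71.1 TPM over all transcripts to 12.8 and 10.7 TPM over coding transcripts, and the other genes move far less.

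Among the D cyclins, which are the growth-responsive partners of Cdk4 and Cdk6, nearly all of the RNA came from Ccnd3. Ccnd3 had 45.7 TPM in library 1 and 42.6 TPM in library 2. Ccnd1 had 1.37 and 1.25 TPM, and Ccnd2 had 1.43 and 0.97 TPM. Ccnd3 was thus far above both in each library, while Ccnd1 and Ccnd2 overlapped. It made up 94.2% of the summed D cyclin TPM in library 1 and 95.05% in library 2. The log2 ratio of Ccnd3 over Ccnd1 was 5.08 ± 0.02 (SD, n = 2), and that over Ccnd2 was 5.23 ± 0.32. Ccnd2 was the higher of the low pair in library 1 and Ccnd1 in library 2, and their log2 ratio was -0.15 ± 0.30. The low levels rested on 484 and 499 counts for Ccnd1 and on 787 and 605 for Ccnd2, against 6666 and 7067 for Ccnd3.

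Most of the Ccnd3 TPM was assigned to transcripts that start in the downstream part of the gene. The gene lies on the plus strand of chromosome 17 from 47505051 to 47599691 in mm10, and it has 21 transcripts in the deposited tables. Transcript Ccnd3-205, which encodes the full cyclin D3, starts 88419 bases downstream of the first start. It was assigned 70.4% of the gene's TPM in library 1 and 72.7% in library 2. In GENCODE M21 every base of Ccnd3-205 is also in another transcript of the gene. Its share, and the split between starts, therefore rest in part on how shared reads were assigned. The 8 transcripts with downstream starts together held 93.2% and 86.3%, and the 13 with upstream starts held 6.80% and 13.8%. The downstream starts are annotated from 47593436 to 47597164 and are not a single site, with Ccnd3-208 starting at 47596068. Most of the upstream share lay in short noncoding transcripts, such as Ccnd3-209 at 4.35% and 8.57% of TPM but 0.226% and 0.387% of the gene's counts. The short coding transcript Ccnd3-208, whose coding sequence is 288 bases against 876 in Ccnd3-205, held 16.6% and 10.1%.

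The sequence beside the start of Ccnd3-205 is shown because that transcript leads in Ccnd3. The RefSeq promoter table (GRCm38.p6) places a start site 3 bases from the first base of Ccnd3-205, and the 250 bases before that site are printed, plus strand, chr17:47593217-47593466. Capitals mark 1 CCAAT box (CCAAT) and 1 GC box (GGGCGG, here on the other strand).
Ccnd3 downstream promoter: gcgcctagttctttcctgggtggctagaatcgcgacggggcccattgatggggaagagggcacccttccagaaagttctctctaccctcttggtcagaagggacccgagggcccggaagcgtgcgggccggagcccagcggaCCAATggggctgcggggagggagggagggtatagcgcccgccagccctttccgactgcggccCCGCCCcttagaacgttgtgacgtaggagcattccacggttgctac
Promoter entries were matched by symbol for 7 of the 10 genes, with 9 windows in all, since Ccnd3 and Cdkn1a have 2 each; Ccnd1, Ccnd2 and Ccne2 had none. The upstream 250 bases were searched on both strands. GGGCGG was found in 7 of the 9 windows and in 32.7% of all 32851 promoter windows, and CCAAT in 3 of 9 and 33.8%. TATAAA was found in 1 of 9, that of Cdk6, and in 12.4% of all. An E2F motif (TTTCCCGC, TTTGGCGC, TTTCGCGC or TTTGCCGC) was found in 1 of 9, that of Cdk2, and in 1.86% of all. These matches are letters in a window, and no binding was measured here.

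The E cyclins, the partners of Cdk2, were both present at moderate levels. Ccne1 had 9.17 TPM in library 1 and 8.83 TPM in library 2, and Ccne2 had 13.3 and 20.5 TPM. Ccne2 was above Ccne1 in each library, with a log2 ratio of Ccne1 over Ccne2 of -0.88 ± 0.48 (SD, n = 2). Over coding transcripts alone Ccne2 had 13.3 and 14.7 TPM, Ccne1 had 8.72 and 8.36 TPM, and the log2 ratio was -0.71 ± 0.14.

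Most of the gap between the libraries in Ccne2 lay in short transcripts without a coding sequence. The gene was 7.13 TPM higher in library 2, of which 4.66 TPM lay in Ccne2-204, 1.09 TPM in the noncoding Ccne2-205 and 1.38 TPM in coding transcripts. Ccne2-204, of 418 bases, was at 0 in library 1 and held 22.8% of the gene's TPM in library 2, with 98.3 counts or 2.12% of the gene's counts. The coding transcript Ccne2-207, of 3006 bases, held 14.6% in library 1 with 544 counts and was at 0 in library 2. The pair use the same upstream first exon, which begins 375 bases before that of Ccne2-201, and 415 of the 418 bases of Ccne2-204 are also in Ccne2-207. Ccne2-202, the leading coding transcript, was assigned 56.6% and 58.0%, and Ccne2-201 held 28.8% and 13.9%. Every base of Ccne2-202 is also in another transcript of the gene in GENCODE M21, so its share rests on how shared reads were assigned. In Ccne1 the full transcript Ccne1-201 led with 77.4% and 92.1%, and the shorter coding Ccne1-204 held 17.6% and 2.66%, on 62.3 and 9.96 counts.

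**Figure D2:**
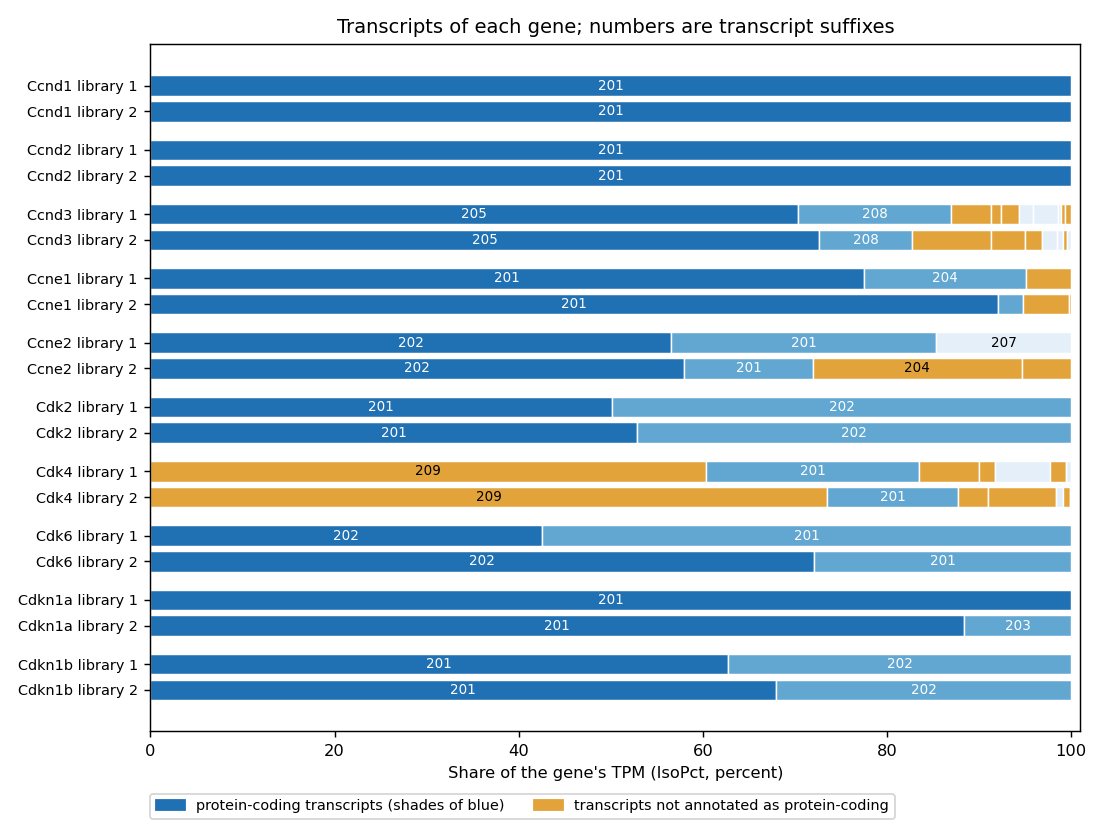
Share of each gene's TPM held by its transcripts, in percent, with 1 bar for each gene and library; blues are protein-coding transcripts and orange marks the others, and the numbers are transcript suffixes. Orange makes up most of the Cdk4 bars, led by Cdk4-209 at 60.4% and 73.4%, and Ccne2-204 appears in library 2 only.

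Cdk4, one of the D cyclin kinases, had 42.9 TPM in library 1 and 71.1 TPM in library 2. The intervals deposited with these values, of unstated level, ran from 40.7 to 46.2 and from 67.5 to 73.9 TPM, and did not overlap. Cdk6, the other D cyclin kinase, had 5.44 and 3.23 TPM. Cdk4 thus held 88.8% and 95.7% of the TPM of the pair, and the log2 ratio of Cdk4 over Cdk6 was 3.72 ± 1.05 (SD, n = 2). Cdk2, the kinase of the E and A cyclins, had 14.9 and 14.1 TPM, and the log2 ratio of Cdk4 over Cdk2 was 1.93 ± 0.57.

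Most of the Cdk4 level was assigned to a short transcript that encodes no protein. Cdk4-209, annotated as a retained intron and 468 bases long, held 60.4% of the gene's TPM in library 1 and 73.4% in library 2. The full coding transcript Cdk4-201, of 2053 bases, held 23.1% and 14.3%. By counts the order was the reverse: Cdk4-201 had 1818 and 2106 counts, or 54.7% and 47.1% of the gene, and Cdk4-209 had 638 and 1390, or 19.2% and 31.1%. A count in Cdk4-209 weighs more in TPM because its effective length, the number of positions at which a fragment can start, is 246 and 234 bases against 1830 and 1817 in Cdk4-201. Cdk4-209 shares 443 of its 468 bases with Cdk4-201, and 25 bases are in no other transcript of the gene.

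The start of Cdk4-209 is shown because those 25 bases alone set it apart. It lies on the plus strand of chromosome 10 in mm10, and the 60 bases printed span chr10:127066076-127066135. Capitals mark the 25 bases, chr10:127066076-127066100, which are the end of the intron before exon 7 of the 8 exons of Cdk4-201. The lower case letters are the start of exon 7, which is coding in Cdk4-201.
Cdk4-209 start: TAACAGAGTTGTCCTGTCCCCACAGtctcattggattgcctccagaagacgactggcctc
The printed run holds the intron's closing letters and then goes on in the exon that both transcripts use.

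On coding transcripts alone, Cdk4 had 12.8 TPM in library 1 and 10.7 TPM in library 2. Cdk2, at 14.9 and 14.1 TPM on that scale, was above it in each library, and the log2 ratio of Cdk4 over Cdk2 turned to -0.31 ± 0.12 (SD, n = 2). Cdk4 still exceeded Cdk6, with 70.1% and 76.9% of the coding TPM of the pair and a log2 ratio of 1.48 ± 0.36. The order of the 10 genes became Ccnd3, Cdkn1b, Cdk2, Ccne2, Cdk4, Ccne1, Cdk6, Ccnd1, Cdkn1a and Ccnd2. In it Cdk2 overlapped Ccne2, Ccnd1 overlapped Cdkn1a, and Cdkn1a overlapped Ccnd2. Of the 5 genes that reached 10 TPM in both libraries, Cdk4 was the 1 with under 50% of its TPM in coding transcripts in both, at 29.7% and 15.1%. Of all 3619 genes at that level, 8.07% were so. Among 27 other genes of the pathway at that level, 2 were so, the p53 ligase gene Mdm2 and the mitotic kinase gene Cdk1. Cdk1 fell from 49.4 and 60.4 TPM to 23.6 and 24.1 TPM of coding transcripts.

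Cdk2 was divided about evenly between its coding transcripts. Cdk2-201 held 50.2% of the gene's TPM in library 1 and 52.9% in library 2, and Cdk2-202 held 49.8% and 47.1%. Cdk2-201 had 1550 and 1741 counts and Cdk2-202 had 1648 and 1662. The shares of the pair lay close together in both libraries. Cdk2-202 has 1 more exon, the sixth of its 8, which lies on the minus strand at chr10:128699976-128700119 in mm10. The exon is 144 bases, divisible by 3 with 48 codons, so the coding sequence is 1038 bases with it and 894 bases without. The exon is shown because it alone separates the encoded proteins, the shorter of which is the usual Cdk2 and the longer a form known in rodents. Capitals mark the exon, and 15 bases of the neighbouring exons stand on either side.
Cdk2-202 added exon: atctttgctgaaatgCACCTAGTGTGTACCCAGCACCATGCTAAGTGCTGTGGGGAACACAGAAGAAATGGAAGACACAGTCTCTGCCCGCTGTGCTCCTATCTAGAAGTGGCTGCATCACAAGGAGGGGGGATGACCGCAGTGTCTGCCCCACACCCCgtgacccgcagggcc

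**Figure D3:**
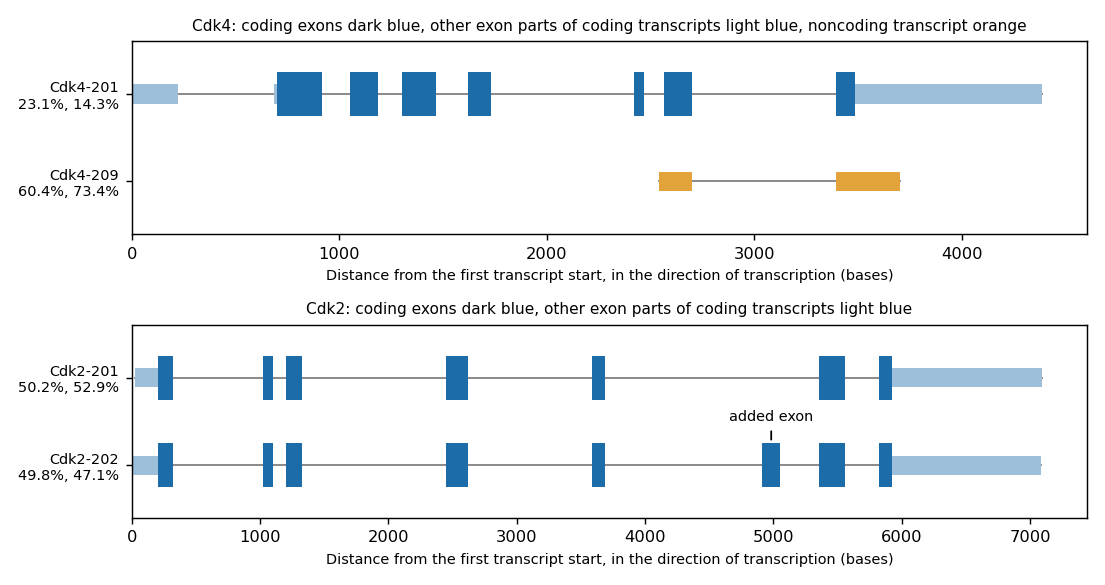
Exons of Cdk4-201 and Cdk4-209 (top) and of Cdk2-201 and Cdk2-202 (bottom) from GENCODE M21, by distance in bases from the first transcript start, with the share of the gene's TPM in libraries 1 and 2 beside each name. Cdk4-209 spans exon 7 and the first portion of the last exon of Cdk4-201, and Cdk2-202 differs from Cdk2-201 by the added coding exon of 144 bases.

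Cdk6, which lies on the plus strand of chromosome 5 from 3341485 to 3531008, was split between transcripts with the same coding sequence. Cdk6-201 held 57.5% of its TPM in library 1 and 27.9% in library 2, and Cdk6-202 held 42.5% and 72.1%. The leading transcript therefore differed between the libraries, on 704 and 230 counts for Cdk6-201 and 813 and 929 counts for Cdk6-202. In GENCODE M21 all 2470 bases of Cdk6-201 are also in Cdk6-202, so this split rests on how shared reads were assigned. The annotated end of Cdk6-202 differs between releases, at 3735 bases in the deposited table and 11525 in GENCODE M21. The TPM of Cdk6 is per deposited length.

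Among the inhibitors Cdkn1b was well above Cdkn1a. Cdkn1b, the p27 gene, had 25.6 TPM in library 1 and 25.3 TPM in library 2, on 7638 and 8211 counts, the highest counts of the 10 genes. Cdkn1a, the p21 gene and a target of p53, had 0.91 and 1.59 TPM on 154 and 281 counts, the lowest counts of the 10. The groups of values were far apart, and Cdkn1b made up 96.6% and 94.1% of the TPM of the pair. The log2 ratio of Cdkn1b over Cdkn1a was 4.40 ± 0.58 (SD, n = 2). Cdkn1b-201 was assigned 62.8% and 67.9% of the gene's TPM, and Cdkn1b-202, with the same coding sequence, 37.2% and 32.1%. The pair have the same annotated start and end, and Cdkn1b-202 holds 2159 bases between them that Cdkn1b-201 lacks. All 2393 bases of Cdkn1b-201 are also in Cdkn1b-202, so the share of Cdkn1b-201 rests on how shared reads were assigned. Cdkn1a came from Cdkn1a-201 at 100% and 88.4%, and from Cdkn1a-203, with a coding sequence of the same 477 bases in length, at 0 and 11.6% on 0 and 13.1 counts. Ccnd1 came from Ccnd1-201 alone in both libraries by the deposited share, though its share by posterior mean TPM was 84.2% and 94.8%. Ccnd2 has 1 deposited transcript, Ccnd2-201, so its share was fixed in advance.

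Other inhibitors of the same kinases fell into a high and a low set. The INK4 genes Cdkn2c (p18) and Cdkn2d (p19), whose proteins bind Cdk4 and Cdk6, had 25.3 and 25.7 TPM and 17.6 and 21.8 TPM. Cdkn2c was thus at the level of Cdkn1b and Cdkn2d somewhat below it. Cdkn2a had 0 counts in both libraries, Cdkn2b had 12 and 0 counts, and the p57 gene Cdkn1c had 0.08 and 0.17 TPM. A count of 0 allows up to 3 counts unseen, by counting error alone.

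The targets and partners of the 10 genes were mostly expressed. Of 53 other genes in 8 lists of the pathway, 45 reached 1 TPM in both libraries and 27 reached 10 TPM, with a median of 11.0 TPM. The retinoblastoma genes, whose proteins are the main targets of Cdk4 and Cdk6, all passed 10 TPM: Rb1 with 14.1 and 12.1, Rbl1 with 22.4 and 24.2, and Rbl2 with 18.8 and 20.8 TPM. Of 10 E2F and DP genes, 9 reached 1 TPM in both, led by Tfdp1 with 27.5 and 27.9 TPM, E2f2 with 15.8 and 16.3, E2f8 with 12.3 and 11.2, and E2f4 with 8.35 and 7.01. The highest list median, 50.4 TPM, was that of the S and G2 partners, with Ccna2, the later partner of Cdk2, at 61.5 and 71.2 TPM, Ccnb1 at 46.6 and 54.1, Cdk1 as given above and Ccnb2 at 31.1 and 35.0. All 9 licensing genes, which prepare origins of replication, passed 1 TPM, led by Mcm6 with 50.8 and 59.1, Mcm7 with 47.2 and 49.9, Gmnn with 44.0 and 47.9 and Mcm3 with 37.4 and 42.6 TPM. Ccna1, a partner of Cdk2 known mainly from the germ line, had 0 counts in both.

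Genes that act on the 10 by activation had a median below theirs, and genes of turnover a median above it. The 4 genes of CDK activation had a median of 4.38 TPM, with Ccnh at 8.04 and 11.7 TPM, Mnat1 at 3.60 and 5.62, Cdc25a at 4.14 and 4.15, and Cdk7, which phosphorylates the activation loop of the kinases, at 1.23 and 1.66. The 7 genes of ubiquitin-dependent turnover had a median of 20.7 TPM, led by Cks1b with 31.3 and 36.9, Skp1a with 31.5 and 36.2, Cul1 with 23.6 and 26.1 and Rbx1 with 18.2 and 23.3. Of 10 genes of the p53 axis, to which Cdkn1a belongs, 7 passed 1 TPM in both libraries. Mdm2 had 28.9 and 21.9 TPM, Gadd45a 23.0 and 20.7, Ccng1 18.5 and 19.9 and Trp53inp1 11.4 and 10.5. By mean TPM, 7 of the 10 lay above Cdkn1a, and Phlda3, Zmat3 and Bbc3, at 0.175, 0.175 and 0.525 TPM, lay below it.

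**Figure D4:**
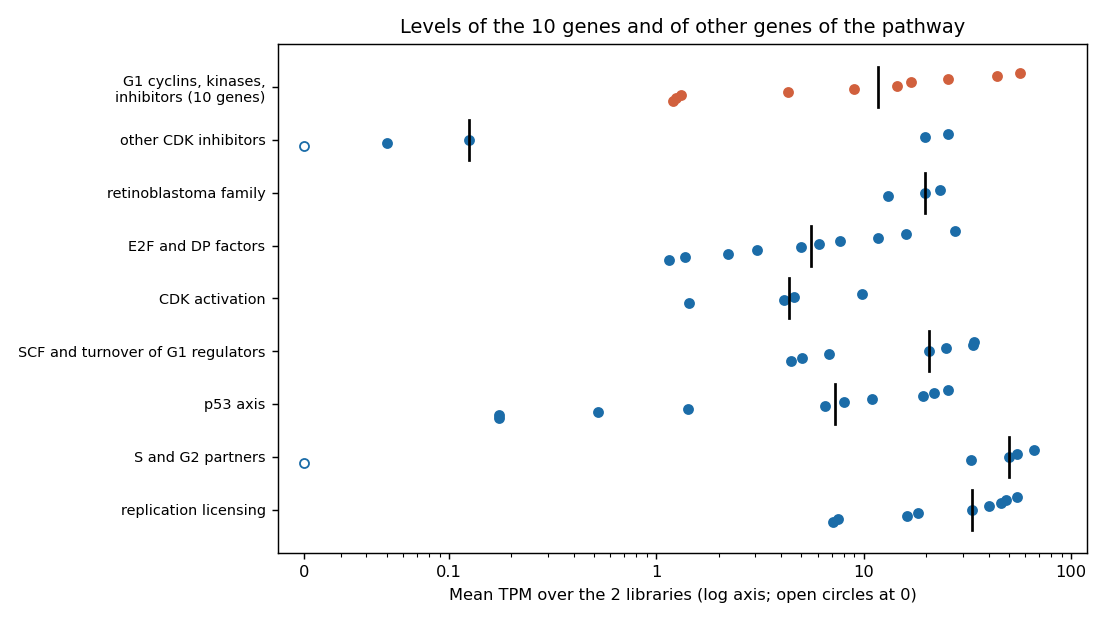
Mean TPM over the 2 libraries on a log axis, with 1 point for each gene, the 10 genes in orange and 8 other lists of the pathway in blue; black bars are medians and open circles stand at 0. The median of the 10 genes is 11.8 TPM, and the nearest list medians are those of the p53 axis below (7.3 TPM) and the retinoblastoma family above (19.8 TPM).

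The libraries were then compared with each other, as the design has no other contrast. Counts were scaled with edgeR's TMM factors, and a 95% exact binomial interval was computed for the ratio of library 2 over library 1. This test knows counting error only, so it asks whether 2 libraries differ, not whether cells do. Of the 10 genes, 3 differed by 1.5-fold or more, against 17.9% of the 12081 genes whose mean count was at least 10. Ccnd2 had a ratio of 0.648 (0.582 to 0.721), Cdk6 of 0.644 (0.596 to 0.696) and Cdkn1a of 1.54 (1.26 to 1.88). Ccnd2 and Cdk6 were thus lower in library 2, and Cdkn1a was higher. The exact binomial test passed for 9 of the 10 at a Benjamini-Hochberg adjusted p under 0.05, against 65.6% of all genes tested, with 3 higher and 6 lower in library 2. Ccne1 did not pass, with a ratio of 1.04 (0.971 to 1.12) and an adjusted p of 0.30 by the exact binomial test. With edgeR's exact test at an assumed biological coefficient of variation of 0.1, a spread set by assumption and not measured, 2 of the 10 passed, against 12.9% of all genes tested. They were Cdk6 with an adjusted p of 0.026 and Ccnd2 with 0.038, and Cdkn1a had 0.087. The median absolute log2 ratio of the 10 genes was 0.17, and that of all genes tested was 0.20.

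Markers of other cell types moved between the libraries beside Ccnd2 and Cdk6. Of 7 erythroid markers, 5 were lower in library 2 by 1.5-fold or more and 1, Epor, was higher, on 11 and 24 counts. Of all genes tested, 9.8% were lower by that much. The erythroid list summed to 37.6 and 23.3 TPM. Of 6 T and NK cell markers, 4 were lower by 1.5-fold or more, and the list summed to 32.4 and 19.0 TPM. The monocyte list summed to 7729 and 10122 TPM, of which Lyz2 held 5969 and 8031 TPM. None of its 7 genes passed 1.5-fold in scaled counts. The neutrophil list summed to 14343 and 13614 TPM, also with none of its 8 genes past 1.5-fold. The part of these cell types in the ratios of Ccnd2, Cdk6 and Cdkn1a was not tested.

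For Cdk4 and Ccne2 the ratio between libraries depended on the scale. In deposited TPM, library 2 over library 1 was 1.66 for Cdk4 and 1.53 for Ccne2, and 22.1% of all genes differed by 1.5-fold or more on that scale. Of the 10 genes, 4 did so: Cdk4, Ccne2, Cdk6 and Cdkn1a. In scaled counts the ratio was 1.13 (1.08 to 1.19) for Cdk4 and 1.07 (1.03 to 1.12) for Ccne2. In TPM of coding transcripts it was 0.841 for Cdk4 and 1.10 for Ccne2. The direction for Cdk4 therefore turned with the choice of transcripts. Its unscaled counts were 1148 higher in library 2, of which 752 lay in Cdk4-209 and 82.8 in coding transcripts. Cdk4-208, annotated as nonsense-mediated decay and not counted as coding here, had 50.8 counts in library 1 and 414 in library 2. The gene's effective length, an average over transcripts, was 773 bases in library 1 and 552 in library 2 for Cdk4, and 2727 and 1988 for Ccne2. These 2 of the 10 genes had effective lengths that differed by 1.2-fold or more, as did 16.7% of all genes tested.

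**Figure D5:**
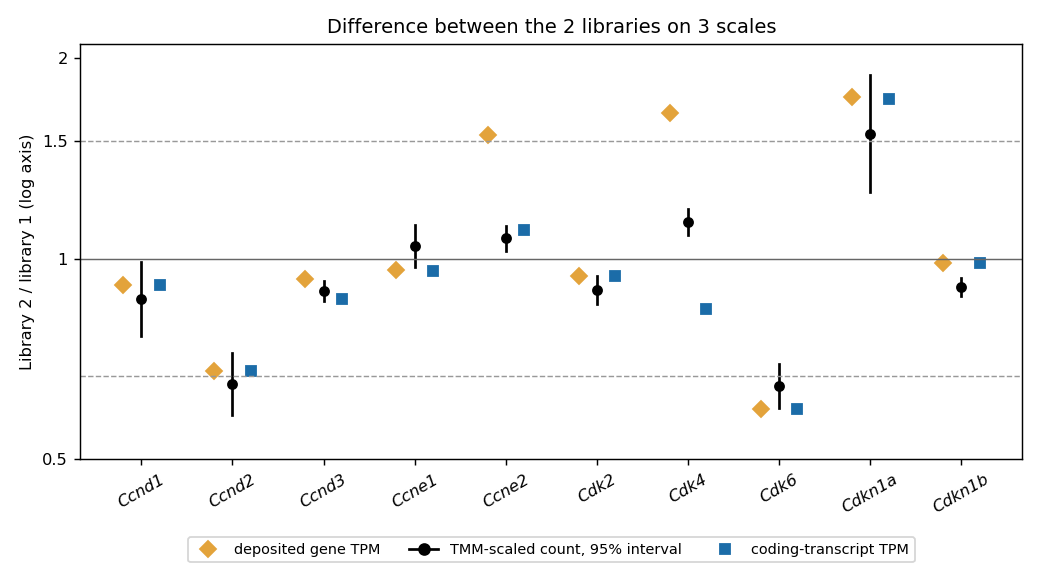
Library 2 over library 1 for each gene on a log axis: diamonds are deposited gene TPM, black points are TMM-scaled counts with 95% exact binomial intervals, and squares are TPM of coding transcripts; dashed lines mark 1.5-fold. The 3 scales lie closer together for 8 genes, and farthest apart for Cdk4 (1.66, 1.13 and 0.841) and Ccne2 (1.53, 1.07 and 1.10).

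Several of the 10 genes overlap a gene on the other strand, and whether strand was used in counting is not given in the sources used here. Cdk4 overlaps Tspan31 by 641 bases, at 14.2 and 15.3 TPM. Overlaps here were taken over whole genes, and overlap of exons was not measured. Ccne2 overlaps Ints8 by 5622 bases, at 9.17 and 8.83 TPM, and Ccnd1 overlaps LTO1 by 1771 bases, at 11.1 and 13.1 TPM. LTO1 was above Ccnd1 in both libraries, and Tspan31 was above Cdk4 on coding transcripts, though not over all transcripts. Ccnd3 overlaps Bysl by 361 bases, at 1.58 and 2.00 TPM, and Cdk2 overlaps Pmel by 837 bases, at 0.15 and 0.02 TPM.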

How the data were processed

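Total RNA was measured in 2 libraries of 1 group. The text deposited beside the tables names mm10 and GENCODE M4; aligner, quantifier and strand setting are not given in the sources used here. Per gene and transcript, the authors deposited an expected count (estimated reads, not normalized), an effective length in bases, TPM over all rows of the table with posterior mean TPM and interval bounds as signal values, and the percent of a gene's TPM held by each transcript. Summed counts were 42703213 and 50532821. Names, types and coordinates came from GENCODE M21 (same build) by ID; 42462 of 43346 mouse gene IDs matched. Coding TPM sums a gene's transcripts of protein-coding type.

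Expected counts were rounded for count methods. Genes whose mean count was at least 10 were scaled with edgeR 4.0.16 (TMM) in R 4.3.3, and each was tested by a two-sided exact binomial test (scipy 1.17.1) with Benjamini-Hochberg adjustment over 12081 genes at 0.05. The code was tested on simulated data. DESeq2 1.42.0 size factors, edgeR's exact test at an assumed coefficient of variation of 0.1, other TPM columns, other minimums and leaving out a library were the alternatives. Intervals and limits of 3 counts cover counting error only: no identifiers of molecules were used in counting as far as the sources say, so reads are not independent molecules. With 1 group, no biological test was possible. The ratio and log2 values were computed here.

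The 10 genes and all lists were chosen with earlier results of these data known. The text names all 10, up to 4 genes of each pathway list by mean TPM with every retinoblastoma gene and every other inhibitor, up to 3 markers of each cell type with Pf4, Ppbp and Gp9, and transcripts holding 10% or more in either library. Most marker lists are given by their sums. Ccna1, Ccnd3-209, Ccne2-205, Epor, Phlda3, Zmat3 and Bbc3 lie outside that rule, as do overlapping genes, and were chosen after their values were seen. No measure of likeness between genes can be had from 2 libraries.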

Additional observations from a re-analysis of the deposited data

How the results depend on the processing

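With coding transcripts only, the log2 ratio of Cdk4 over Cdk6 was 1.48 (3.72 over all transcripts), that of Cdk4 over Cdk2 reversed to -0.31 (from 1.93), and the log2 ratio of library 2 over library 1 for Cdk4 reversed to -0.25 (0.18 in counts); the last was added after seeing the data. Short noncoding transcripts leave the sum by construction. Ccnd3 over Ccnd1, 5.08 in the deposited TPM, was 4.90 on coding transcripts, 4.94 with posterior means and 4.96 with counts per full length. Leaving out a library moved the log2 ratio of Ccnd2 over Ccnd1 between -0.37 and 0.062, which reversed it without library 2, and Cdk6-202 no longer led without library 2, at 42.5% (72.1% without library 1). At 20 TPM, 3 of the 10 genes passed in both libraries (5 at 10 TPM). Genes that differed by 1.5-fold between libraries numbered 3447 with no filter beyond 1 count and 850 at a mean count of 100 (2162 at 10), and 1556 genes passed edgeR's exact test at the assumed coefficient of variation (7931 by the exact binomial test). The other 46 settings of the pair ratios and counts gave the same direction within the spread between libraries, or a count within 1.5 times. With 2 libraries, a pair ratio without 1 of them lies within that spread by arithmetic. Those settings could therefore show only a change of sign. For single genes, levels and shares of leading transcripts were judged by the spread between libraries. Ratios between libraries were judged by the exact binomial interval, which covers counting error only. Levels and shares without 1 library also lie within the spread by arithmetic, so they say nothing about stability. By these limits, 91 settings stayed within and 27 moved beyond. Of these, 10 are the levels rescaled to nuclear protein-coding genes, which raises every level (Ccnd1 from 1.31 to 5.19, Cdk4 from 57.0 to 222). The log2 ratio between libraries for Ccne1, not called, went from 0.06 to -0.21 as a share of nuclear protein-coding TPM and to -0.06 on coding transcripts. No paired analysis was possible because there is a single group. Depth limits Cdkn1a most, at 154 and 281 counts.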
